A study of Mus musculus with 10 samples.

Results

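Collagen chain genes encode the polypeptides that wind into the triple helices of the extracellular matrix. The members were all genes of the count table whose mouse symbol has the form Col, number, a, number, and 44 of the 27151 genes of the table met that rule, from 27 collagen types. Following the usual structural grouping, 11 were fibrillar, 9 network forming, 9 FACIT (fibril-associated collagens with interrupted triple helices), 6 beaded filament and 4 transmembrane chains. The other 5 (Col7a1, Col15a1, Col18a1, Col26a1 and Col28a1) lie outside these 5 classes. Fibrillar collagens form the banded fibres that carry tension, and the minor fibrillar types are known to nucleate the fibres and set their width. Network collagens build basement membranes, FACITs coat the fibres, beaded filaments run around cells such as muscle fibres, and the transmembrane chains anchor cells. In the tongue, collagen surrounds muscle fibres and vessels, fills the lamina propria and ties the epithelium to it.

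The series holds 10 libraries of tongue RNA from C57BL/6J mice, all exposed to 4NQO, a chemical carcinogen that induces oral lesions. Of these, 4 come from vehicle treatment and 6 from SP2509, an inhibitor of the histone demethylase LSD1, and the titles of those 6 read SP2509h. There is no group without 4NQO, so the vehicle libraries are carcinogen-exposed too. The sources used here state no age, sex, dose, duration or part of the tongue, nor that each library came from its own mouse. Every p-value thus reflects library to library spread, part of which may be technical.

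Depth differed between the groups. Recovered whole reads summed to 9180844 to 14768955 per vehicle library and to 15748571 to 19375555 per SP2509 library, and mitochondrial genes took 35.3% to 52.1% of them in vehicle and 24.0% to 32.2% in SP2509. Among genes with 1000 to 5000 reads, SP2509 replicates 1 and 2, and SP2509 replicates 4 and 5, were closer to each other than any other libraries of one group. The median squared difference within these 2 pairs was 3.49 and 3.72 times its Poisson expectation, against 11.1 to 162 times in the other 19 pairs. Among genes with 10 to 50 reads the pairs stood apart less, at 2.40 for replicates 1 and 2 and 3.515 for replicates 4 and 5, against 2.70 for vehicle replicates 3 and 4, 2.88 for SP2509 replicates 1 and 3 and 3.075 for SP2509 replicates 2 and 3. Means ± SD of SP2509 are therefore given over 4 units, with each close pair averaged, and each adjusted p is given over 10 libraries and with the close pairs averaged. SP2509 replicates 4 and 5 held 292968 and 304041 summed normalised reads of 6 gland markers, against 788 or less in every other library, and 4 of the 6 (Muc5b, Lpo, Prol1 and Dcpp1) were at 0 in at least 1 library. Of the tissue's other markers, the skeletal muscle list ran from 163007 to 325625 summed reads in vehicle and, with SP2509, from 275940 to 772851, with the highest sum in SP2509 replicate 6, and none of its 8 genes was at 0 in any library.

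Collagen transcripts were lower with SP2509 in 12 genes and higher in none. A normalised read count of at least 10 in at least 4 libraries was reached by 39 of the 44 genes, and 12 of these 39 (30.8%) were lower at an adjusted p under 0.05 (limma over 17088 genes). Over all genes tested, 4.15% were lower and 4.95% were higher. The genes called were Col3a1, Col5a1, Col5a2, Col5a3, Col11a2, Col24a1 and Col27a1 of the fibrillar class, Col4a2 and Col4a5 of the network class, Col9a2 and Col16a1 of the FACITs and Col6a1 of the beaded class. By class, 7 of 11 tested fibrillar, 2 of 8 network, 2 of 7 FACIT and 1 of 4 beaded genes were lower, and none of the 4 transmembrane genes or of the 5 genes outside the classes. The fold change was negative in 29 of the 39 genes, with a median of -0.43 on the log2(value + 1) scale, against 48.1% of all tested genes and a median of 0.02. In 8 of the 39 genes (20.5%) every SP2509 library lay below every vehicle library, and in 0 every SP2509 library lay above, where 5.11% of all tested genes showed the first and 6.54% the second. In bulk tissue, fewer cells of a type and less RNA per cell cannot be told apart.

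The count of called collagen genes rested on how the close pairs were treated and on single libraries. With the close pairs averaged, limma called 0 collagen genes and 0 genes of the table (lowest adjusted p = 0.0718). At an unadjusted p under 0.05, 17 collagen genes were then lower and 2, Col8a1 and Col12a1, were higher, against 9.67% and 11.6% of all tested genes. On the recovered reads of 10 libraries, edgeR called 10 collagen genes lower and none higher, where 3.42% of all genes were lower and 5.34% higher. edgeR with the pairs summed called 0 genes (18 collagen genes, and 8.47% of all genes, were lower at an unadjusted p under 0.05), and DESeq2 with the pairs summed called 12 collagen genes lower, 11 of them shared with the limma call, where 4.72% of all genes were lower and 4.98% higher. Left out 1 at a time, vehicle replicate 1 left 2 collagen genes, vehicle replicates 2, 3 and 4 left 6, 8 and 7 (Col15a1 among the 8), SP2509 replicates 1 to 5 left 6, 7, 6, 5 and 6, and SP2509 replicate 6 gave 15. Col5a3 and Col24a1 were called in all 10 of these fits, Col4a2 and Col27a1 in 9 (lost without vehicle replicate 1) and Col5a2 in 8 (lost without vehicle replicate 1 or 4). Col5a1 was called in 5, Col4a5 in 4, Col9a2 in 3, Col11a2 and Col16a1 in 2, and Col3a1 and Col6a1 in 1 of the 10. Col3a1 and Col6a1 were kept without SP2509 replicate 6 and lost without any other library. Without vehicle replicates 1 and 2 together 0 genes were called, and without SP2509 replicates 4 and 5 together Col5a3 and Col24a1 remained. None of the 24 collagen genes followed through the alternatives changed sign in any of them.

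**Figure D1:**
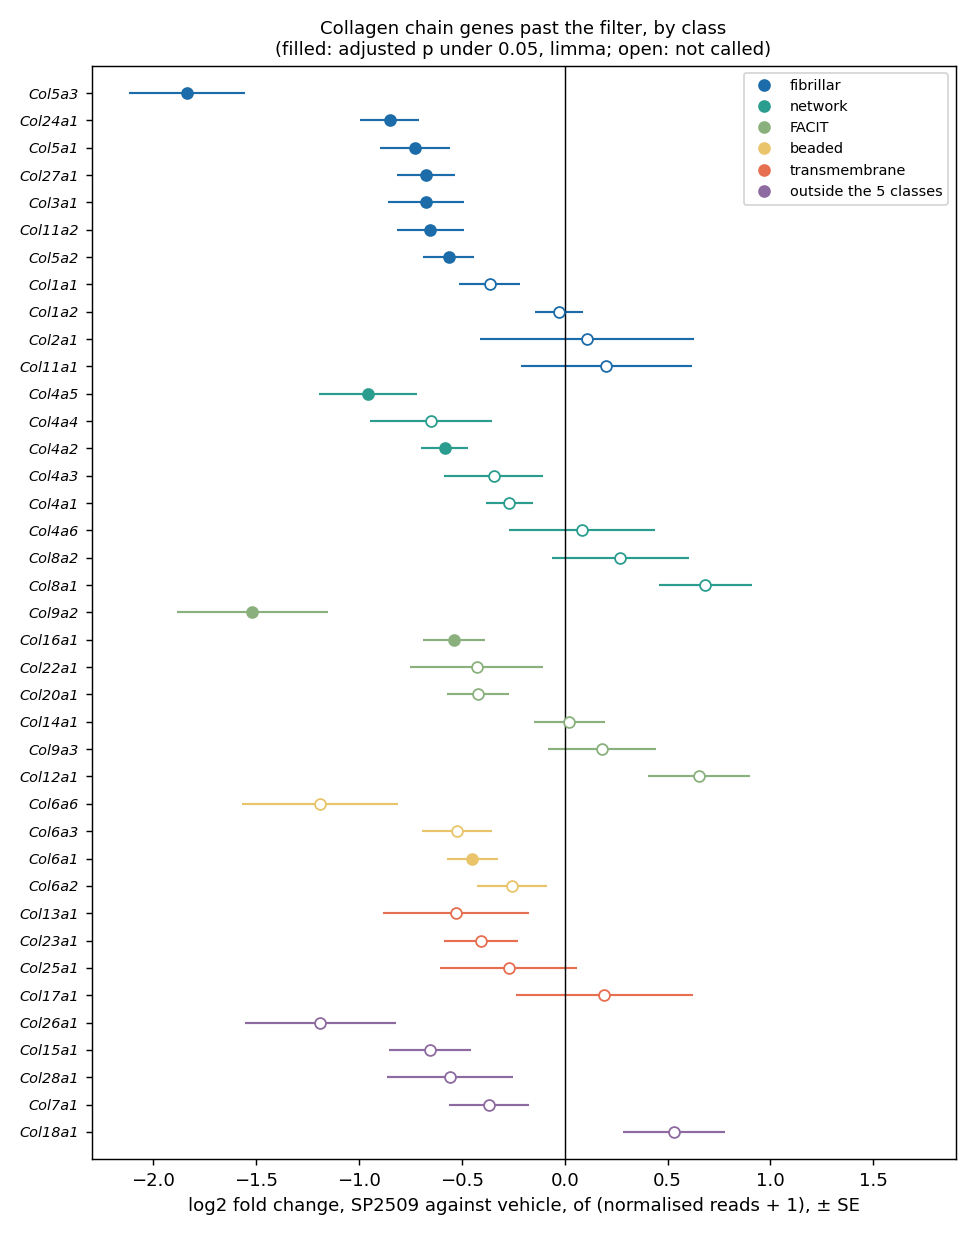
Log2 fold change (SP2509 against vehicle, of normalised reads + 1) with its SE for the 39 collagen genes past the filter, ordered within class; filled points passed an adjusted p under 0.05 (limma, 10 libraries). The 12 filled points all lie left of 0, and 10 genes, none of them filled, lie right of it.

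Among the fibrillar genes, Col3a1 and 6 chains of the minor types fell, while both chains of type I collagen, the bulk fibre of most connective tissue, and the low-level Col2a1 and Col11a1 did not pass. Col5a3, which encodes a chain of type V collagen found in a subset of its trimers, had the largest change of the 39 tested genes. Its normalised reads were 2715, 2713, 987 and 1293 in vehicle replicates 1 to 4 and 583, 613, 437, 343, 449 and 572 in SP2509 replicates 1 to 6. Every SP2509 library lay below every vehicle library, and vehicle replicates 1 and 2 stood well above vehicle replicates 3 and 4. The mean was 1927 ± 917 (SD, n = 4) in vehicle and 501 ± 99.3 (SD, n = 4 units) in SP2509, and the log2 fold change was -1.84 (SE 0.28, limma adjusted p = 0.0118, and 0.0718 with the close pairs averaged). Leaving out 1 library kept the fold change of Col5a3 between -2.11 and -1.63. Per kilobase of merged exons, Col5a3 was the fourth most abundant collagen transcript in vehicle (283 normalised reads per kb) and the eleventh in SP2509 (73.6).

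The other type V chains, whose trimer starts type I fibrils and limits their width, were lower as well, so that all 3 type V genes were called. Col5a1 stood at 1036, 1394, 683 and 901 normalised reads in vehicle and at 599, 615, 684, 486, 567 and 580 in SP2509. The groups of Col5a1 touched, with SP2509 replicate 3 level with vehicle replicate 3. The log2 fold change of Col5a1 was -0.73 (SE 0.17; adjusted p = 0.0261, and 0.104 with the pairs averaged). Col5a2 stood at 805, 726, 746 and 911 in vehicle and at 647, 585, 560, 440, 486 and 527 in SP2509, with no overlap, and fell by 0.56 (SE 0.12; adjusted p = 0.0206, 0.0751 averaged). Type V was the only collagen type with more than 1 tested chain in which every tested chain was called. Exons of Col5a1 share 99 and 113 of 8490 bases with 2 antisense genes (2810430I11Rik and Gm13372) that averaged 14.5 and 10.5 normalised reads. The strand setting of the counting is not given, so those reads cannot be assigned to a strand.

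Col24a1 and Col27a1, fibrillar genes known mainly from developing bone and cartilage, were also lower. Col24a1 had 534, 381, 555 and 493 normalised reads in vehicle and 328, 308, 237, 240, 239 and 275 in SP2509. No SP2509 library reached the lowest vehicle library, and Col24a1 fell by 0.85 (SE 0.14; adjusted p = 0.0118, 0.0718 averaged). Col27a1 had 554, 454, 365 and 510 in vehicle and 306, 323, 345, 256, 257 and 269 in SP2509, again without overlap, and fell by 0.68 (SE 0.14; adjusted p = 0.0184, 0.0801 averaged). Col11a2, a chain of type XI collagen that in cartilage plays the part of type V, had 415, 341, 398 and 284 in vehicle and 207, 187, 254, 199, 222 and 305 in SP2509. SP2509 replicate 6 lay above the lowest vehicle library, and Col11a2 fell by 0.65 (SE 0.16; adjusted p = 0.0316, 0.126 averaged).

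Col3a1 encodes the fibre of distensible tissue and of early wound matrix. It stood at 2377, 4138, 2054 and 2092 normalised reads in vehicle and at 1678, 1816, 1563, 1642, 1577 and 1353 in SP2509. All SP2509 libraries were below all vehicle libraries, and vehicle replicate 2 stood far above the others. Col3a1 fell by 0.67 (SE 0.18; adjusted p = 0.0427, 0.123 averaged), and by 0.44 without vehicle replicate 2, where it was not called. Col1a1 had 962, 1617, 909 and 1086 normalised reads in vehicle and 922, 943, 793, 832, 871 and 833 in SP2509, overlapping at the lower end (log2 fold change -0.37, SE 0.15, adjusted p = 0.136). Without vehicle replicate 2 the fold change of Col1a1 was -0.19. Col1a2, its partner in type I collagen, had 1630 ± 252 and 1578 ± 60.3 normalised reads in the same order (log2 fold change -0.03, SE 0.12, adjusted p = 0.906). The cartilage genes Col2a1 and Col11a1 were near the filter, at 10.8 ± 6.09 and 11.5 ± 5.85 normalised reads in vehicle and 9.90 ± 1.94 and 12.01 ± 4.20 in SP2509, and rested on 35 and 34 reads in all vehicle libraries together.

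**Figure D2:**
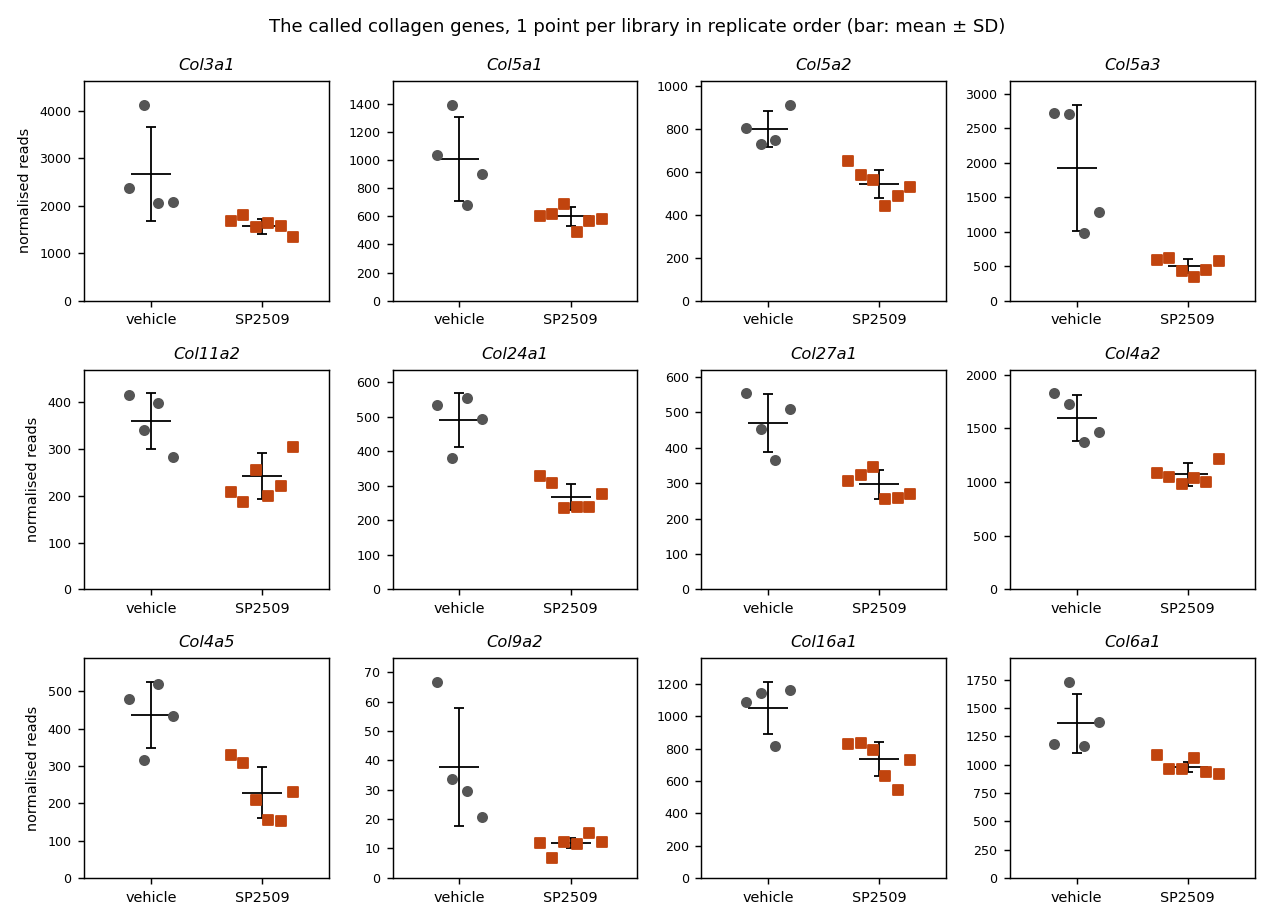
Normalised reads of the 12 called collagen genes in each library, vehicle as circles and SP2509 as squares, both in replicate order from left to right, with the mean ± SD (n = 4 vehicle libraries and n = 4 SP2509 units). In Col5a3 the vehicle libraries run from 987 to 2715 and the SP2509 libraries from 343 to 613, and in Col9a2 the whole plot lies under 67 normalised reads.

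The sequences before the start sites of 4 fibrillar genes that fell are shown so that the proximal promoters of called genes can be compared. Each line gives the 250 bases before the RefSeq start (GRCm38.p6), 5′ to 3′ on the gene's strand, with no annotated exon in the window. Capitals mark matches on either strand to 3 motifs. TATAAA is the core of the TATA box. CCAAT is the core bound by NF-Y. The core of an Sp1 site is GGGCGG. The windows are chr9:20815068-20815317 (minus strand) for Col5a3, chr2:27886175-27886424 for Col5a1, chr3:145292222-145292471 for Col24a1 and chr1:45311288-45311537 for Col3a1 (plus strand).
Col5a3: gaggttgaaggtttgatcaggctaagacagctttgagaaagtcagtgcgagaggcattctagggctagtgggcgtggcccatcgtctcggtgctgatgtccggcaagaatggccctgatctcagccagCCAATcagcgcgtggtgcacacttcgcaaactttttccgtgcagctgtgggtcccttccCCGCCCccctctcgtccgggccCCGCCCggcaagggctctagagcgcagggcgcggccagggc
Col5a1: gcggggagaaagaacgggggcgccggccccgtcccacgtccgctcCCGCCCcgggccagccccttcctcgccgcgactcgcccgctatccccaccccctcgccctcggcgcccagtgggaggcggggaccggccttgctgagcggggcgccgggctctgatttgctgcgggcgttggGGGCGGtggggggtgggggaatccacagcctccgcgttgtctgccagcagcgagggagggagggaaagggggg
Col24a1: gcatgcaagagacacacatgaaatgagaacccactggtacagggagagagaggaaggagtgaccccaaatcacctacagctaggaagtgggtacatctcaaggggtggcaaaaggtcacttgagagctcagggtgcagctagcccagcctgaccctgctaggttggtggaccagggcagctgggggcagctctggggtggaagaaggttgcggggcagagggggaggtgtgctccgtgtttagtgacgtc
Col3a1: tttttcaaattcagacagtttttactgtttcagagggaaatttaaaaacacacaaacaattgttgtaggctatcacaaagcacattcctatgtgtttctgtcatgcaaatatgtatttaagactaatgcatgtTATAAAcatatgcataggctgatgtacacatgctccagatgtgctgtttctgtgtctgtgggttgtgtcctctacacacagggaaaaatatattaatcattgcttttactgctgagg
Col5a3 carried CCAAT with its first base at position -122 and GGGCGG, read on the other strand, at -63 and -41. Col5a1 carried GGGCGG at -205, again on the other strand, and at -73, Col3a1 carried TATAAA at -117, and Col24a1 carried none of the 3. The windows ran from 35.2% GC in Col3a1 to 76.4% in Col5a1, and none of the 3 motifs was present in all 4 windows. RefSeq promoters were listed for 35 of the 44 genes (38 start sites) and for 11 of the 12 called genes. GGGCGG was present in 8 of those 11 windows (72.7%), in 12 of 21 windows of tested genes that were not called (57.1%) and in 32.7% of all 32851 windows. The median GC of these 3 sets of windows was 59.6%, 60.8% and 52.4%, and its part in the counts was not tested. Unlike the 4 windows shown, some of the counted windows held annotated exon bases (all 250 in Col4a2). CCAAT was present in 4 of the 11 (36.4%, against 33.8% of all windows) and TATAAA in 2 (18.2%, against 12.4%). A match describes the letters of the window only.

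In the network class 1 gene of each of 2 basement membrane pairs of collagen IV was called and its partner was not, and the difference between partners is taken up with the ratios. Col4a2 encodes a chain that joins the Col4a1 product in the type IV trimer of nearly all basement membranes. It stood at 1828, 1729, 1370 and 1465 normalised reads in vehicle and at 1087, 1048, 980, 1035, 1003 and 1218 in SP2509, without overlap. Its log2 fold change was -0.58 (SE 0.11; adjusted p = 0.0149, 0.0796 with the pairs averaged). Col4a1 stood at 1567, 1523, 1315 and 1623 in vehicle and at 1141, 1184, 1156, 1204, 1301 and 1528 in SP2509 (log2 fold change -0.27, SE 0.12, adjusted p = 0.15). SP2509 replicate 6 lay within the vehicle range of Col4a1, and without that library Col4a1 was called as well. Both genes start head to head at the same place on chromosome 8 (Col4a1 at chr8:11198423-11312826 on the minus strand, Col4a2 at chr8:11312805-11449287 on the plus strand, GRCm38) and overlap by 22 bases.

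The X-linked pair Col4a5 and Col4a6 encodes the chains of a type IV network found under stratified epithelium. Col4a5 had 478, 315, 521 and 434 normalised reads in vehicle and 331, 308, 210, 155, 153 and 230 in SP2509, with SP2509 replicate 1 above the lowest vehicle library. Col4a5 fell by 0.96 (SE 0.24; adjusted p = 0.0315, 0.0796 averaged). Its neighbour Col4a6 was at 56.7 ± 23.3 and 55.0 ± 22.1 in vehicle and SP2509 (log2 fold change 0.08, SE 0.36, adjusted p = 0.907). This pair too lies head to head, with 1308 bases between the annotated genes, and Col4a3 and Col4a4 do so with 71 bases between. Col4a3 and Col4a4, best known from kidney, had 90.3 ± 34.6 and 73.5 ± 31.4 in vehicle and 69.3 ± 9.64 and 44.9 ± 4.997 in SP2509, and neither passed (adjusted p = 0.371 and 0.176). Some reads of Col4a3 may belong to the antisense gene C430014B12Rik, which covers 5.65% of its exon length and averaged 2.61 normalised reads.

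Col8a1 had a positive fold change. It encodes a short chain of the network under endothelium, and had 96.4, 95.2, 176 and 214 normalised reads in vehicle and 240, 213, 253, 189, 217 and 211 in SP2509. Vehicle replicate 4 was the one vehicle library within the SP2509 range (log2 fold change 0.68, SE 0.23, adjusted p = 0.0741), and without vehicle replicate 4 Col8a1 was called higher (0.90, adjusted p = 0.0373). Its partner Col8a2 was at 29.3 ± 13.8 and 32.5 ± 5.48 (adjusted p = 0.637). Col10a1, a gene of hypertrophic cartilage, rested on 11 reads in all vehicle libraries and 7 in all SP2509 libraries and was not tested.

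Of the FACIT genes, Col9a2 had the second largest fall among the 39 genes. It encodes a chain of type IX collagen, which decorates cartilage fibrils, and stood at 66.8, 33.8, 29.6 and 20.6 normalised reads in vehicle and at 11.9, 6.60, 12.2, 11.6, 15.3 and 12.2 in SP2509. The groups did not overlap, but the level was low, with 102 reads in all vehicle and 88 in all SP2509 libraries. Col9a2 fell by 1.52 (SE 0.37; adjusted p = 0.0292, 0.0925 averaged), and by 1.21 in the weakest of the fits without 1 library. Its partner Col9a3 was at 29.2 ± 9.22 and 32.3 ± 2.72 (adjusted p = 0.695; 6.07% of its exon length is shared with the antisense gene Tcfl5), and Col9a1, with 12 and 14 reads, was not tested.

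Col16a1, the most abundant FACIT transcript, is known from skin, where it lies near the dermal junction. It had 1088, 1144, 818 and 1165 normalised reads in vehicle and 828, 833, 793, 633, 546 and 728 in SP2509, where replicates 1 and 2 just overlapped vehicle replicate 3. Col16a1 fell by 0.54 (SE 0.15; adjusted p = 0.0435, 0.119 averaged). The FACITs of type I fibrils did not pass. Col12a1 was at 87.5 ± 32.6 and 138 ± 30.2 normalised reads (log2 fold change 0.65, SE 0.25, adjusted p = 0.111), and Col14a1 was at 290 ± 63.8 and 292 ± 48.5 (0.02, SE 0.17, adjusted p = 0.948). Col20a1 (448 ± 84.2 and 328 ± 51.5, adjusted p = 0.0926) and Col22a1, a gene of the myotendinous junction (187 ± 72.6 and 130 ± 43.0, adjusted p = 0.407), had negative fold changes. Col19a1 rested on 16 and 52 reads and was not tested.

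The beaded class is type VI collagen, the microfibril around muscle fibres and fat cells. Col6a1 stood at 1185, 1734, 1166 and 1378 normalised reads in vehicle and at 1090, 964, 964, 1062, 934 and 921 in SP2509. Every SP2509 library lay below every vehicle library, with SP2509 replicate 1 close to vehicle replicates 1 and 3, and Col6a1 fell by 0.45 (SE 0.12; adjusted p = 0.0442, 0.126 averaged). Col6a2 and Col6a3, the other chains of the main trimer, were at 734 ± 234 and 713 ± 214 in vehicle and 596 ± 14.7 and 489 ± 79.8 in SP2509, with adjusted p-values of 0.352 and 0.0702. Col6a6, an alternative chain, had 40.8, 36.9, 16.9 and 35.0 in vehicle and 13.4, 12.4, 6.11, 17.4, 19.6 and 13.0 in SP2509, overlapping only at vehicle replicate 3 (log2 fold change -1.19, SE 0.38, adjusted p = 0.0654). Col6a4 and Col6a5, its neighbours on chromosome 9, rested on 31 and 30 reads in vehicle and 55 and 42 in SP2509 and were not tested.

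The transmembrane class held the most abundant collagen transcript per kilobase. Col17a1 encodes the hemidesmosome collagen that fixes basal keratinocytes to the basement membrane. It had 5008, 9287, 3934 and 4560 normalised reads in vehicle and 10806, 11275, 9759, 4405, 4373 and 2346 in SP2509. SP2509 replicates 1 to 3 stood above all vehicle libraries, replicates 4 and 5 within their range and replicate 6 below it, and the log2 fold change was 0.19 (SE 0.43, adjusted p = 0.81). The summed reads of basal keratinocyte markers, mostly of Krt5 and Krt14, were also highest in SP2509 replicates 1 to 3 and lowest in replicate 6, while Itgb4 and Dst of the same list were highest in a vehicle library. The 8 genes, none at 0 in any library, ranged from 65477 to 93781 summed reads in vehicle and stood at 153770, 151016 and 171625 in SP2509 replicates 1 to 3, at 102642 and 101983 in replicates 4 and 5 and at 49588 in replicate 6. Their part in the values of Col17a1, and in those of Col7a1 and Col18a1 given next, was not tested. Col13a1, a gene of the neuromuscular junction (34.3 ± 11.8 and 23.6 ± 10.4), Col23a1 (434 ± 61.2 and 334 ± 73.9) and Col25a1, a neuronal gene (30.3 ± 7.94 and 27.3 ± 10.7), did not pass, with adjusted p-values of 0.351, 0.162 and 0.634.

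Outside the 5 classes none of 5 genes passed. Col7a1 forms the anchoring fibrils under the epithelium and was the second most abundant collagen transcript per kilobase. It had 5238, 5904, 5009 and 6039 normalised reads in vehicle and 5283, 5947, 5087, 3504, 3340 and 3316 in SP2509, so that SP2509 replicates 1 to 3 fell within the vehicle range and replicates 4 to 6 below it (log2 fold change -0.37, SE 0.19, adjusted p = 0.235). Col18a1, the basement membrane collagen from which endostatin is cut, had a positive fold change, with 677, 565, 824 and 1221 in vehicle, 1519, 1467 and 1492 in SP2509 replicates 1 to 3 and 869, 896 and 840 in replicates 4 to 6 (log2 fold change 0.53, SE 0.25, adjusted p = 0.182). Its relative Col15a1, a gene of muscle and vessel basement membranes, was at 445 ± 137 and 287 ± 56.9 in vehicle and SP2509 (log2 fold change -0.655, SE 0.20, adjusted p = 0.0597). Without SP2509 replicate 6, or without vehicle replicate 3, Col15a1 was called lower (-0.74 and -0.87, adjusted p = 0.0166 and 0.0331). Col26a1 was at 56.7 ± 20.9 and 27.6 ± 11.5 (-1.19, SE 0.37, adjusted p = 0.0602) and was called without SP2509 replicate 6. Col28a1, known from peripheral nerve, was at 70.9 ± 32.8 and 44.6 ± 7.26 (adjusted p = 0.254).

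**Figure D3:**
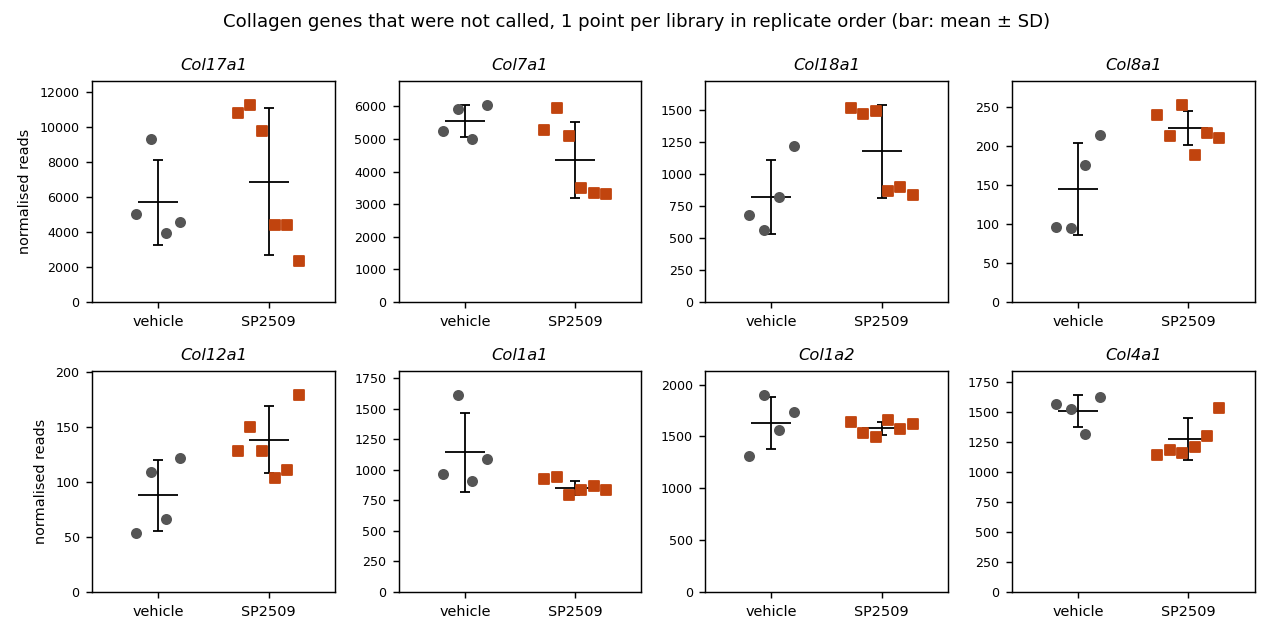
Normalised reads of 8 collagen genes that were not called, in each library in replicate order, with the mean ± SD (n = 4 vehicle libraries and n = 4 SP2509 units). Col17a1, Col7a1 and Col18a1 are high in SP2509 replicates 1 to 3 and lower in replicates 4 to 6, while Col1a2 stays between 1315 and 1904 in all 10 libraries.

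Summed per kilobase, 4 of the 5 classes lay lower in every SP2509 library than in any vehicle library. These sums are given as a description, with no test. Fibrillar chains summed to 1216 ± 289 normalised reads per kb in vehicle (939 to 1596) and to 712 ± 39.3 in SP2509 (664 to 770). Network chains summed to 557 ± 26.2 and 421 ± 36.7 and FACIT chains to 332 ± 15.8 and 251 ± 28.3. Beaded chains summed to 465 ± 103 and 338 ± 12.3. The groups of these 4 sums did not overlap, while the transmembrane sum, nearly all of it Col17a1, was 1033 ± 396 and 1211 ± 705 and overlapped widely. The 5 genes outside the classes summed to 663 to 853 in vehicle and 499.5 to 840 in SP2509, which overlapped. A few chains carried much of the sums. In vehicle, Col4a2 and Col4a1 gave 241 and 202 per kb, Col6a1 312 and Col16a1 156. As single genes, 5 of 11 tested fibrillar, 1 of 8 network, 1 of 7 FACIT and 1 of 4 beaded genes had every SP2509 library below every vehicle library. Fibrillar chains made up 25.6% to 30.2% of all collagen reads per kb in vehicle and 16.8% to 25.9% in SP2509. Transmembrane chains made up 20.5% to 29.6% in vehicle, 40.9% to 42.5% in SP2509 replicates 1 to 3 and 16.6% to 26.8% in replicates 4 to 6. All 44 genes together summed to 4352 ± 789 in vehicle and 3582 ± 895 in SP2509.

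**Figure D4:**
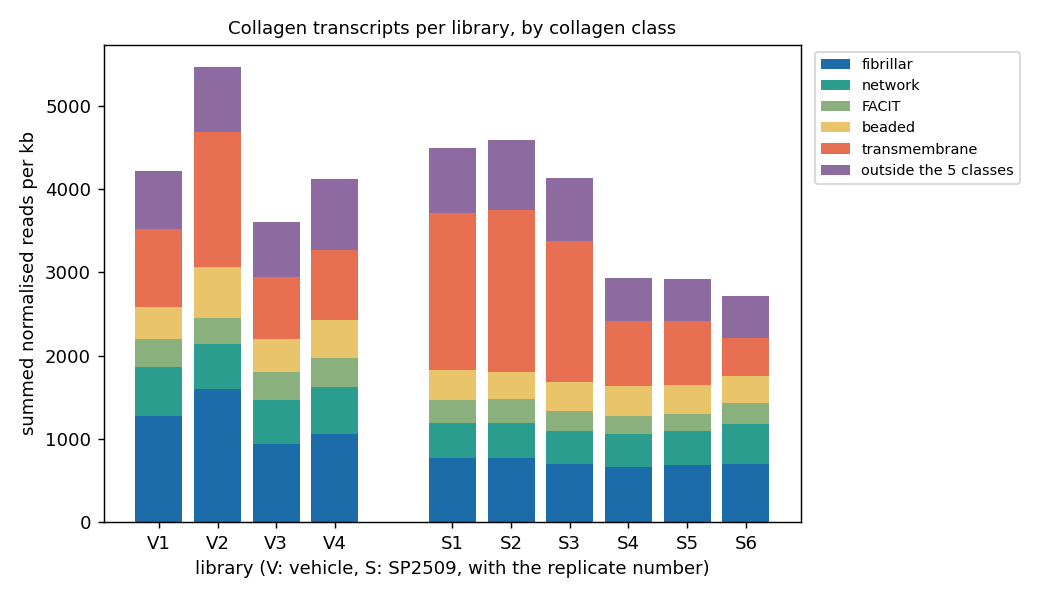
Summed normalised reads per kilobase of merged exon length for the 44 collagen genes in each library, stacked by class (V, vehicle; S, SP2509; the number is the replicate). The fibrillar part is 939 to 1596 in vehicle and 664 to 770 in SP2509, and the transmembrane part is tallest in SP2509 replicates 1 to 3.

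Ratios between chains of 1 molecule, or of 1 shared start region, were compared to see whether partners moved together. Of 10 ratios none passed after adjustment over the 10 (exact permutation test over 10 libraries, two-sided, Benjamini-Hochberg, lowest adjusted p = 0.0635). The smallest possible p over 10 libraries is 0.00952, so 1 ratio alone at that floor could not pass after adjustment. None passed over 8 units either, where the smallest possible p is 0.0286 and several ratios would have to reach it together to pass. A ratio that did not pass is thus not shown to be unchanged. Unadjusted, 4 of the 10 had p under 0.05. Col5a3 to Col5a1 was 2.62, 1.95, 1.45 and 1.44 in vehicle and 0.974, 0.996, 0.639, 0.705, 0.792 and 0.986 in SP2509, with no overlap between the groups (exact permutation p = 0.00952, the smallest this design allows, and 0.0635 adjusted). Col4a1 to Col4a2 was 0.857 to 1.11 in vehicle and 1.05 to 1.30 in SP2509 (exact permutation p = 0.019, adjusted 0.0635). Col1a1 to Col1a2 was 0.582 to 0.849 in vehicle and 0.502 to 0.615 in SP2509 (exact permutation p = 0.019, adjusted 0.0635), and Col3a1 to Col1a1 was 1.93 to 2.56 and 1.62 to 1.97 (exact permutation p = 0.0286, adjusted 0.0714). Per kilobase, Col5a3 to Col5a1 averaged 2.32 in vehicle and 1.05 in SP2509, and Col1a1 to Col1a2 averaged 1.32 in vehicle and 1.02 in SP2509. Col4a5 to Col4a6 spread from 4.02 to 15.2 in vehicle and from 2.53 to 9.10 in SP2509 (exact permutation p = 0.0762, adjusted 0.152).

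**Figure D5:**
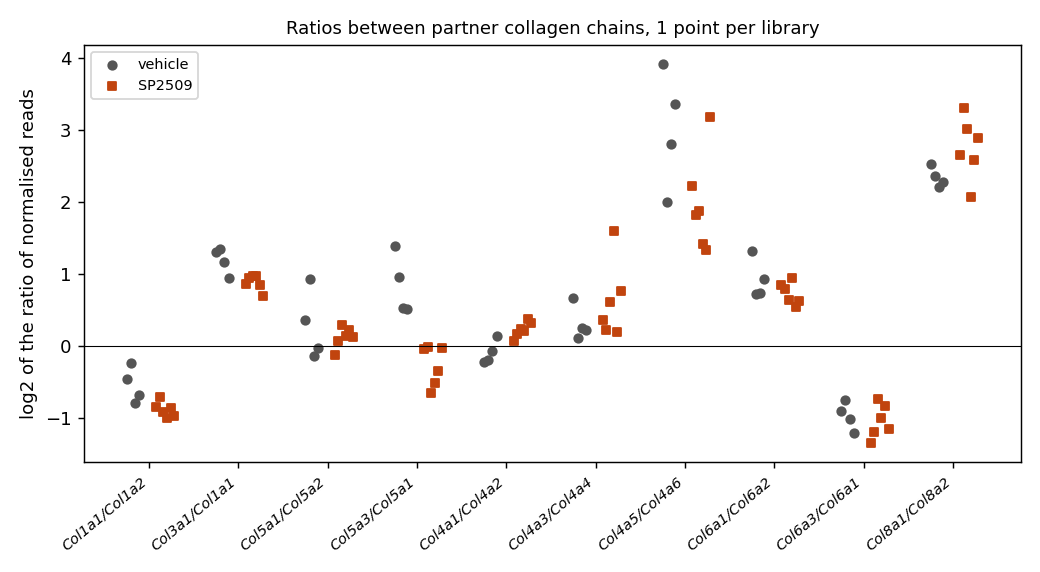
Log2 of the ratio of normalised reads for 10 pairs of partner collagen chains, 1 point per library (circles, vehicle; squares, SP2509). Reads are not divided by gene length here, so the line at 0 does not mark equal levels. For Col5a3 to Col5a1 every vehicle point (lowest ratio 1.44) lies above every SP2509 point (highest ratio 0.996).

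Among genes that process, bind and receive collagen, called genes lay on both sides, and each count is to be read against the 4.95% higher and 4.15% lower of all tested genes. Of 20 tested genes of chain modification and folding, 2 were higher and 1 was lower, with a median log2 fold change of 0.15. P4ha3, a prolyl hydroxylase subunit, rose by 0.94 (SE 0.27; adjusted p = 0.0477, 0.133 averaged), and Ppib, a proline isomerase of the collagen folding complex, rose by 0.60 (SE 0.15; adjusted p = 0.0325, 0.126 averaged). Colgalt2, which adds galactose to hydroxylysine, fell by 0.82 (SE 0.18; adjusted p = 0.0199, 0.0764 averaged). Among 11 tested genes of propeptide processing and crosslinking 2 were lower and 1 was higher. Bmp1, the procollagen C-proteinase, fell from 2864 ± 371 to 2084 ± 304 normalised reads (log2 -0.49, SE 0.13, adjusted p = 0.0414, 0.147 averaged), and Adamts14, an N-proteinase, fell by 1.18 (SE 0.30; adjusted p = 0.0337, 0.11 averaged). Pcolce2, an enhancer of the C-proteinase, rose by 1.09 (SE 0.31; adjusted p = 0.0467, 0.14 averaged). Of 12 collagen receptors 1 was called, Itgb1, the shared beta chain of the collagen-binding integrins, which rose by 0.65 (SE 0.15; adjusted p = 0.0235, 0.091 averaged). None of 12 fibril-associated genes, 10 genes of collagen degradation or 16 transcriptional regulators passed, and 11 of the 12 fibril-associated genes had a positive fold change (median 0.39).

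No fibroblast or myofibroblast marker was called lower. Of 10 fibroblast markers, none at 0 in any library, 9 had a positive fold change and none was called (median 0.41). The 1 with a negative fold change was Pdgfrb (-0.46, SE 0.17, limma adjusted p = 0.101). The sums of the 10 markers ran from 8930 to 12804 in vehicle and from 12298 to 15789 in SP2509. Dcn, the fibril proteoglycan of fibroblasts, was at 4392 ± 1225 and 5604 ± 600 (adjusted p = 0.161). The 7 myofibroblast markers summed to 1639 to 3311 and 2654 to 4696, with 5 positive and 2 negative fold changes (Fap -0.50, adjusted p = 0.0576, and Lrrc15 -0.63, adjusted p = 0.484), and 1 of them, Tnc, rose from 160 ± 92.8 to 369 ± 103 normalised reads (SE of the log2 fold change 0.39; adjusted p = 0.0366, 0.138 averaged). Endothelial markers summed to 5986 to 9271 and 6066 to 8067, with 3 positive and 4 negative fold changes and 1 call, Egfl7, which was lower (-0.77, SE 0.14, adjusted p = 0.0136, 0.0732 averaged). All 6 Schwann cell markers had a negative fold change (median -0.70, none at 0 in any library), and their sums were 14633, 19546, 9807 and 11072 in vehicle and 5497 to 11911 in SP2509. Vehicle replicates 1 and 2 were thus highest in these markers and in Col5a3 alike, and the part of Schwann cells in the result was not tested. Pericyte and smooth muscle markers (6 genes, 14079 to 23777 and 20998 to 50016) had 3 positive and 3 negative fold changes (median 0.07). Des gave the largest part of these sums, at 7194 to 14519 in vehicle and 12761 to 41218 in SP2509. Adipocyte markers (5 genes) summed to 3315 to 5952 and 4182 to 5359, mostly of Fabp4, with Adipoq, Plin1 and Lep at 0 in at least 1 library. Adipoq was at 138.5 and 143.2 in SP2509 replicates 4 and 5 and at 23.9 or less elsewhere. Plin1 and Cidec were also highest in these replicates. Macrophage markers (5 genes, 564 to 926 and 677 to 1309), like the pericyte and adipocyte lists, had no called gene. Neither had differentiated keratinocyte markers (7 genes, 22261 to 47086 and 10617 to 88437). Cartilage and tendon markers summed to 217 to 366 in vehicle and to 299 to 976 in SP2509, highest in replicates 4 and 5, and Acan was at 0 in at least 1 library. All 5 tested cartilage and tendon markers had a positive fold change (median 1.06), and none was called. The 4 tested adipocyte markers were all positive too (median 1.75).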

How the data were processed

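Tongue RNA was enriched on poly-T beads and primed with random hexamers, per the labels' protocols. HISAT2, featureCounts and the build mm10 are named in the submitters' processing notes, without versions, and no annotation, strand setting or scaling tool is named there. The authors deposited a normalised signal, which is each gene's whole reads over a library size factor. This was read from the values: 100% lay within 0.01 read of a whole multiple of each library's smallest value, and the scaling equals DESeq2's median of ratios within 6.05e-08 percent.

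Symbols were matched for 27113 of 27151 genes, and positions and merged exon lengths come from GENCODE M21 (GRCm38). The test was limma (3.58.1, R 4.3.3) with trend and robust moderation on log2(value + 1), two-sided, no covariate, 10 libraries, 17088 genes that reached 10 normalised reads in 4 or more libraries, Benjamini-Hochberg over all of them, called under 0.05. Such fold changes understate low genes, and a single read counts as 0.898 to 1.85 in vehicle libraries and as 0.727 to 0.873 in SP2509 libraries. edgeR (4.0.16) and DESeq2 (1.42.0) ran on the recovered reads, and called 585 and 1394 genes lower and 912 and 1606 higher. Ratios used exact permutation tests (SciPy 1.17.1). The fit was tested on simulated data in which all 10 libraries were drawn independently, so that check does not cover the close pairs. The members and lists were chosen with earlier results of these data known. By rule, values were given in full for called collagen genes, for the highest member of each class and for partners whose ratio passed. Members nearest the threshold and at most 3 genes of each pathway list, those with the smallest p, were named. Col1a1, Col8a1, Col18a1 and Col6a6 were given in full beyond that rule, and the marker genes named were chosen after their values were seen. Alternatives were other pseudocounts, filters, scalings and tools, the close pairs merged, and libraries left out. Replicate numbers were not used to pair libraries.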

Additional observations from a re-analysis of the deposited data

Results flagged for a closer look

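A check for 1 library set apart from the rest of its group covered the 24 collagen genes followed through the alternatives. They were the called genes, the highest of each class, those nearest the threshold, and Col1a1 and Col18a1. Other genes described with their values, such as Col1a2 and Col6a2, were not checked. Each of the 24 was checked in both groups (48 checks, of which chance flags about 5%), and 3 had such a library. Col3a1 stood at 4138 normalised reads in vehicle replicate 2 and at 2054 to 2377 in the other vehicle libraries. Col6a3 stood at 1032 in the same library and at 580 to 640 in the others. Col15a1 stood at 369.5 in SP2509 replicate 6, the library with the highest muscle marker sum, and at 233 to 278 in the other SP2509 libraries.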

How the results depend on the processing

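Pseudocounts of 0.5 and 5 kept all 12 collagen calls, quantile normalization kept 11 of them (13 called; 666 genes of the table higher and 1060 lower, against 846 and 709), a filter of 50 kept 11, edgeR 10 and TMM scaling 9. The count of genes lower and higher moved to 1394 and 1606 with DESeq2 (17 collagen genes), and the count higher to 490 without the limma trend (6 collagen genes lower) and to 553 without a filter. With the close pairs averaged in limma or summed in edgeR, 0 genes were lower or higher. The same 0 was reached without vehicle replicates 1 and 2, and without SP2509 replicates 4 and 5 there were 156 lower, 219 higher and 2 collagen genes lower. These combined leave-outs and the pair-summed fits were chosen after seeing the data. Leaving out 1 library gave 107 to 1488 genes lower, 171 to 1971 higher, 2 to 15 collagen genes lower and 0 to 1 collagen gene higher. The cause was not tested. Libraries of the same replicate number did not deviate together (correlations 0.126, 0.032, -0.198 and 0.125, and not every library correlated best with its own number). Vehicle replicates 1 and 2 correlated positively with SP2509 replicates 1 to 3 and negatively with replicates 4 to 6. Vehicle replicates 3 and 4 showed the reverse, and all correlations lay between -0.215 and 0.191. The source of this pattern was not tested. With a replicate block 11 collagen genes were lower, with 813 genes lower and 1158 higher in all. No ratio could pass under the block, whose smallest possible p is 0.125. Col9a2 rested on 102 reads in all vehicle libraries and 88 in all SP2509 libraries.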

Other observations

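The spread of the collagen genes differed between the groups. The SD of log2(value + 1) was larger over the 4 vehicle libraries than over the 4 SP2509 units in 27 of 39 tested collagen genes (69.2%), against 46.1% of all tested genes. Its median was 0.475 in vehicle and 0.234 in SP2509 for the collagen genes, and 0.294 and 0.336 for all tested genes. In 12 of the 39 collagen genes (30.8%) SP2509 replicate 4 was the lowest SP2509 library, against 16.3% of all genes. Its close partner, replicate 5, was lowest in 6 (15.4%, against 14.8% of all genes), and replicate 6 in 8 (20.5%, against 29.2%). These counts are a description, with no test.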
